A study of Homo sapiens with 6 samples.

Results

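The genes described here are 10 components of Toll-like receptor signalling, out of 19876 gene symbols in the deposited table: the receptors TLR1, TLR2, TLR3, TLR4, TLR5 and TLR6, the adaptors MYD88, TIRAP and TICAM1, and the kinase IRAK1. They were taken as a list by name, and the list was chosen by the counts of TLR2 and TLR6, which drew attention by being higher with rhTR11B than with PBS. All values of the 10 genes from rhTR11B against PBS are therefore given as a description; the calls of the fit over all genes are counted once, and no test of these genes is used as support. The cells are A549, a long-established human lung adenocarcinoma line, with the genotype labelled WT, and their transcripts were counted by RNA sequencing. Of the 6 libraries, 3 came from cells cultured with rhTR11B and 3 from cells cultured with phosphate-buffered saline (PBS) as the negative control. All cells grew in DMEM with serum and antibiotics. The labels do not spell out rhTR11B (TR11B usually stands for osteoprotegerin, the product of TNFRSF11B) and give no dose and no time, so the groups differ by an exposure of unstated strength and length. The labels call the replicates biological without saying whether each was its own culture, so p-values measure only how these libraries vary, which may be technical variation.

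Toll-like receptors are membrane proteins whose leucine-rich repeats recognise microbial molecules and some molecules released by damaged tissue, and whose cytoplasmic TIR domain recruits adaptors. TLR2 pairs with TLR1 or TLR6 to bind bacterial lipopeptides at the cell surface, TLR4 binds lipopolysaccharide together with LY96, TLR5 binds flagellin, and TLR3 binds viral RNA duplexes inside endosomes. MYD88 carries the signal of all of these except TLR3 to the IRAK kinases and NF-kB, TIRAP links MYD88 to TLR2 and TLR4, and TICAM1 (TRIF) serves TLR3 and TLR4 and leads to interferon genes. Airway and alveolar epithelial cells use the pathway to release chemokines on contact with microbes.

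On GRCh38.p14, 4 of the 6 receptor genes lie on chromosome 4. TLR1 (38787569 to 38805644) and TLR6 (38822897 to 38868390) are neighbours, with 17253 bases between them, while TLR2 (153684280 to 153710637) and TLR3 (186069156 to 186088073) lie far away on the same chromosome. TLR4 is on chromosome 9 (117704403 to 117724735), TLR5 on chromosome 1 (223109404 to 223143248), MYD88 on chromosome 3 (38138661 to 38143022), TIRAP on chromosome 11 (126283093 to 126294933), TICAM1 on chromosome 19 (4815932 to 4831712) and IRAK1 on chromosome X (154010507 to 154019902).

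A RefSeq promoter sequence (GRCh38.p14, 250 bases before to 50 after a start site) was matched for 8 of the 10 genes. The promoters of TLR2 and TLR6 are shown because these receptors form a dimer and both stood higher with rhTR11B. Each is printed 5′ to 3′ on the gene's own strand, and capitals mark the GC box GGGCGG, the binding motif of SP family factors. The TLR2 window is chr4:153684030-153684329 on the plus strand and the TLR6 window is chr4:38856768-38857067 on the minus strand. The TLR6 window belongs to a start site inside the span of the gene, whose annotated 5′ end lies further out.
TLR2: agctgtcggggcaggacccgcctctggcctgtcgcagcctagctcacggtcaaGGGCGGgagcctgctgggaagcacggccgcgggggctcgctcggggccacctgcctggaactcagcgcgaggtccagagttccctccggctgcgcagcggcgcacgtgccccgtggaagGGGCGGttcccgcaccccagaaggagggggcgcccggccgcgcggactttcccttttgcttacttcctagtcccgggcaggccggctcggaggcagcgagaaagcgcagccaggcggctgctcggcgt
TLR6: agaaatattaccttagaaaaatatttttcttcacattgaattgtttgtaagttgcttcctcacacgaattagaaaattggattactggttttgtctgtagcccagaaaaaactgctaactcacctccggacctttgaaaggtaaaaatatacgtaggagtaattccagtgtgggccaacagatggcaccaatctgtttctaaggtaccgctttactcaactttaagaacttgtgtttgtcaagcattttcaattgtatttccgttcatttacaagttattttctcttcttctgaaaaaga

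The windows matched for the dimer partners differ in base composition. The annotated outer 5′ end of TLR6 was not examined, and which start site these cells use was not tested. The TLR2 window is 72.7% G or C with 33 CpG dinucleotides, and 85.7% of 35116 RefSeq promoters of this length have a lower GC content. The TLR6 window is 34.7% G or C with 5 CpG dinucleotides, and 4.01% of promoters have a lower GC content. On both strands, 6 motifs were searched: the NF-kB consensus, AP-1 (TGANTCA), the GC box (GGGCGG), the interferon response element (GAAA, then any 2 bases, then GAAA), the TATA box (TATAAA) and an ETS core (CCGGAA). They are found in 5.91%, 7.71%, 45.0%, 3.57%, 11.5% and 17.2% of all promoters in that order. TLR2 matched the GC box at 2 places and none of the other motifs, and TLR6 matched none of the 6. Of the other members, TICAM1 held 1 NF-kB match, TLR3 and MYD88 each held 1 interferon response element, and IRAK1 held 1 AP-1 match at its start site. A GC box was found in TLR3, TLR4, TLR5, MYD88, TICAM1 and IRAK1 as well. These are matches of letters in a window and show no binding.

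The libraries held 36315751 to 38148838 counts. With rhTR11B the 13 mitochondrially encoded genes took a larger share of counts (7.88% to 10.4%, against 6.63% to 7.71% with PBS), and rhTR11B replicate 3 had the highest mitochondrial share and the lowest share of ribosomal protein genes (3.58%, against 4.23% to 4.77% in the other 5 libraries). Of 9 epithelial and A549 markers, 6 were in the table. The keratins KRT7, KRT8 and KRT18 were abundant, while the keratin KRT19 had 0 to 5 counts in a library. The epithelial surface genes EPCAM and CDH1, which mark many carcinoma lines, had 0 to 10 and 0 to 1 counts in a library. The lung markers SFTPB, SFTPC and NKX2-1 were not analysed here. Of 10 markers of myeloid and lymphoid cells, which carry many Toll-like receptors, 6 were in the table and their summed level was 0.416 to 0.840 CPM (counts scaled to library size) with PBS and 0.933 to 1.02 with rhTR11B. Most of that sum came from the integrin gene ITGAM, with 9 to 18 counts with PBS and 17 to 26 with rhTR11B, and from FCER1G, with 7 to 15 counts in a library. The other 4, SPI1, CSF1R, AIF1 and LYZ, had 0 to 4 counts in every library. The 4 fibroblast markers measured summed to 2.73 to 3.70 CPM with PBS and 4.29 to 6.46 with rhTR11B, mostly COL1A1, and the 3 endothelial markers to 0.131 to 0.416 and 0.192 to 0.241. The part of these marker and composition differences in the results below was not tested.

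At baseline, with PBS, transcripts of IRAK1, MYD88 and TICAM1 were more abundant in FPKM than those of any receptor. Those of TIRAP were at the level of TLR2 on this scale. Levels of different genes are compared here in FPKM, which divides by gene length and library size. IRAK1 was at 93.3 ± 3.86 FPKM (SD, n = 3), above 97.1% of the 18691 genes detected with PBS. MYD88 followed at 17.8 ± 1.12 and TICAM1 at 13.3 ± 0.767 FPKM. TLR2 had 5.12 ± 0.574 and TIRAP 4.79 ± 0.119 FPKM, and these neighbours overlapped between libraries. Their similar level depends on the gene lengths behind the FPKM, 9443 bases for TLR2 and 2479 for TIRAP. The GENCODE annotation gives 5217 and 3591 exon bases. In CPM, which leaves out length, the PBS means were 48.1 for TLR2 and 11.8 for TIRAP. With other lengths TLR2 could therefore stand above TIRAP, and the order of other genes close in FPKM could change. TLR2 was the leading receptor, with 87.5% to 89.5% of the summed FPKM of the 6 receptors in the PBS libraries.

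**Figure D1:**
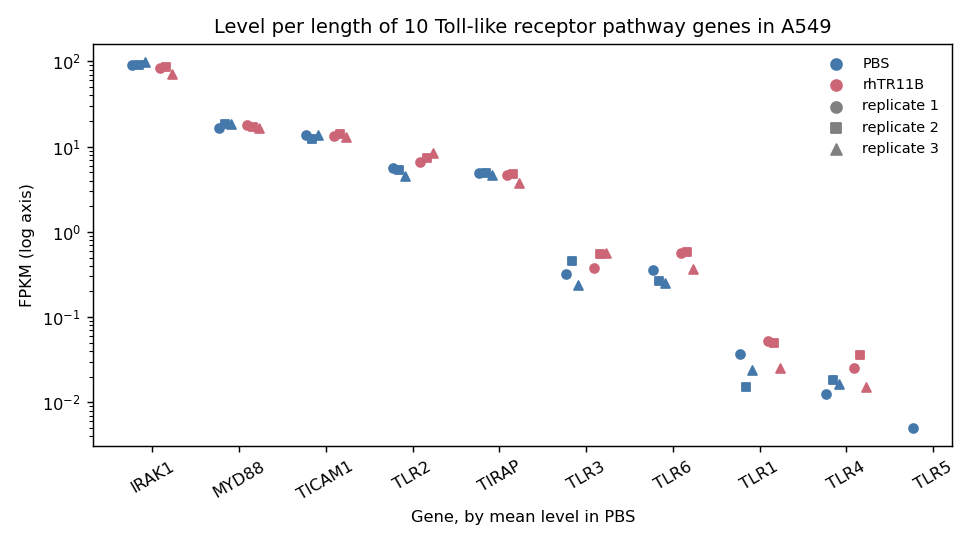
Level per length (FPKM, log axis) of the 10 genes in each library, ordered by the mean in PBS; blue marks PBS, red rhTR11B and the symbol the replicate. IRAK1 lies near 93.3 FPKM and TLR2 is the only receptor above 1 FPKM; libraries with 0 counts, 5 of them for TLR5, are not drawn.

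The other receptors were scarce. TLR3 (0.334 ± 0.109 FPKM) and TLR6 (0.293 ± 0.0593 FPKM) overlapped with each other and lay clearly below TIRAP, whose mean was 14.3 times that of TLR3. TLR1 had 0.0254 ± 0.0110 and TLR4 0.0158 ± 0.00299 FPKM, and these neighbours overlapped too. In FPKM, TLR6 thus stood 9.73 to 17.7 times above TLR1, the alternative partner of TLR2, in the 3 PBS libraries. However, TLR1 rests on 5 to 12 counts. The size of this ratio also depends on the lengths used, 7752 bases for TLR6 and 8706 for TLR1. The GENCODE annotation gives 6035 and 4535 exon bases. TLR5 was seen with 1 count in PBS replicate 1 and 0 in the other 5 libraries; 0 counts allow up to 0.0779 to 0.0842 CPM, for counting error only. Of the receptors outside the list, TLR9 had 0 to 2 counts and TLR10 0 to 1, and TLR7 and TLR8 were not analysed here.

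TLR2, the shared partner of the lipopeptide receptors, had 52.7, 49.1 and 42.4 CPM with PBS and 62.4, 68.6 and 80.8 CPM with rhTR11B, in replicates 1, 2 and 3. All 3 rhTR11B libraries were above all PBS libraries, and rhTR11B replicate 3 was the highest. The mean was 48.1 ± 5.19 CPM with PBS and 70.6 ± 9.36 with rhTR11B (SD, n = 3 per group), a log2 fold change of 0.55 (SE 0.09) or 1.47-fold. The same replicate 3 held the highest mitochondrial share, and without it the log2 fold change was 0.45. In bulk RNA, more cells with the transcript and more transcript per cell cannot be told apart, and the same holds for a lower level.

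TLR6, the partner that directs TLR2 to diacylated lipopeptides, was covered by 104, 79 and 74 counts in the PBS libraries and by 163, 167 and 102 in the rhTR11B libraries. Scaled to library size these were 2.78, 2.05 and 1.94 CPM against 4.47, 4.48 and 2.86 CPM. The groups did not overlap, but rhTR11B replicate 3, highest for TLR2, was the lowest treated library for TLR6 and lay close to PBS replicate 1. Its mean in PBS libraries was 2.26 ± 0.456 CPM and in rhTR11B libraries 3.94 ± 0.931 CPM (log2 fold change 0.80, SE 0.21), and the log2 fold change was 0.99 without rhTR11B replicate 3. The ratio of TLR2 to TLR6 in FPKM was 15.6, 19.6 and 17.9 with PBS and 11.5, 12.6 and 23.2 with rhTR11B. This ratio overlapped between the groups, so the partners did not keep a fixed proportion across the treated libraries.

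TLR1, the partner for triacylated lipopeptides, was covered by 12, 5 and 8 counts in the PBS libraries and by 17, 16 and 8 in the rhTR11B libraries. The groups overlapped, and rhTR11B replicate 3 was again the lowest treated library. Its log2 fold change was 0.76 with an SE of 0.48, and with 1 library left out it ran from 0.49 to 1.12. TLR1 and TLR6 are close paralogs: 4.10% of the 50-base windows of TLR6 transcripts in GENCODE 29, and 5.33% of those of TLR1, occur in the other gene. How the counting treated reads from such stretches is not given in the sources used here, so the values of the pair are uncertain. The shares do not bound this uncertainty. TLR6 had 74 to 167 counts in a library and TLR1 5 to 17, so misplaced TLR6 reads would weigh more on TLR1. The lengths behind the FPKM were 8706 bases for TLR1 and 7752 for TLR6, where GENCODE 29 gives 4535 and 6035. The sequence counted may therefore differ from the sequence searched. TLR2 shared no 50-base window with TLR1, TLR6 or TLR10.

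TLR3, the endosomal receptor for viral RNA duplexes, had 1.90, 2.68 and 1.42 CPM with PBS and 2.28, 3.30 and 3.42 CPM with rhTR11B. PBS replicate 2 was above rhTR11B replicate 1, so the groups overlapped. The log2 fold change was 0.58 (SE 0.23), and it was 0.39 when PBS replicate 3 was left out and 0.85 when PBS replicate 2 was. TLR4, the receptor for lipopolysaccharide, was covered by 6, 9 and 8 counts in the PBS libraries and by 12, 17 and 7 in the rhTR11B libraries, which overlapped and were too low for the fit. Its partners were also scarce: LY96 had 0 to 1 counts and the co-receptor CD14 had 7 to 21 counts in a library.

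The adaptors had nearly the same level in both groups. MYD88, the adaptor shared by most of the receptors, had 44.6, 49.3 and 50.4 CPM with PBS and 48.8, 46.5 and 45.9 with rhTR11B (log2 fold change -0.03, SE 0.07, 95% interval -0.17 to 0.11). TICAM1, the adaptor of TLR3, had 36.9, 32.9 and 36.7 CPM with PBS and 36.3, 37.1 and 35.3 with rhTR11B (log2 fold change 0.03, SE 0.07, 95% interval -0.12 to 0.18). For both genes the libraries of the groups were intermingled, and the sign turned with 1 library left out: MYD88 stood at 0.00 without PBS replicate 3 and TICAM1 at -0.02 without PBS replicate 2.

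TIRAP, which brings MYD88 to TLR2, had 12.0, 11.9 and 11.55 CPM with PBS and 11.55, 11.8 and 9.46 with rhTR11B. Only rhTR11B replicate 3 stood clearly lower, and the log2 fold change of -0.11 (SE 0.10) was -0.01 without that library. In FPKM, TLR2 was 0.965 to 1.15 times TIRAP in the PBS libraries and 1.42 to 2.24 times TIRAP with rhTR11B. IRAK1, the kinase that MYD88 recruits, had 339, 337 and 366 CPM with PBS and 315, 316 and 271 with rhTR11B. All 3 treated libraries lay below the PBS libraries, with replicate 3 lowest, for a log2 fold change of -0.21 (SE 0.07) that was -0.14 without that library. Relative to TLR2, IRAK1 in FPKM was 16.2 to 21.8 times as high with PBS and 8.46 to 12.7 times with rhTR11B.

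**Figure D2:**
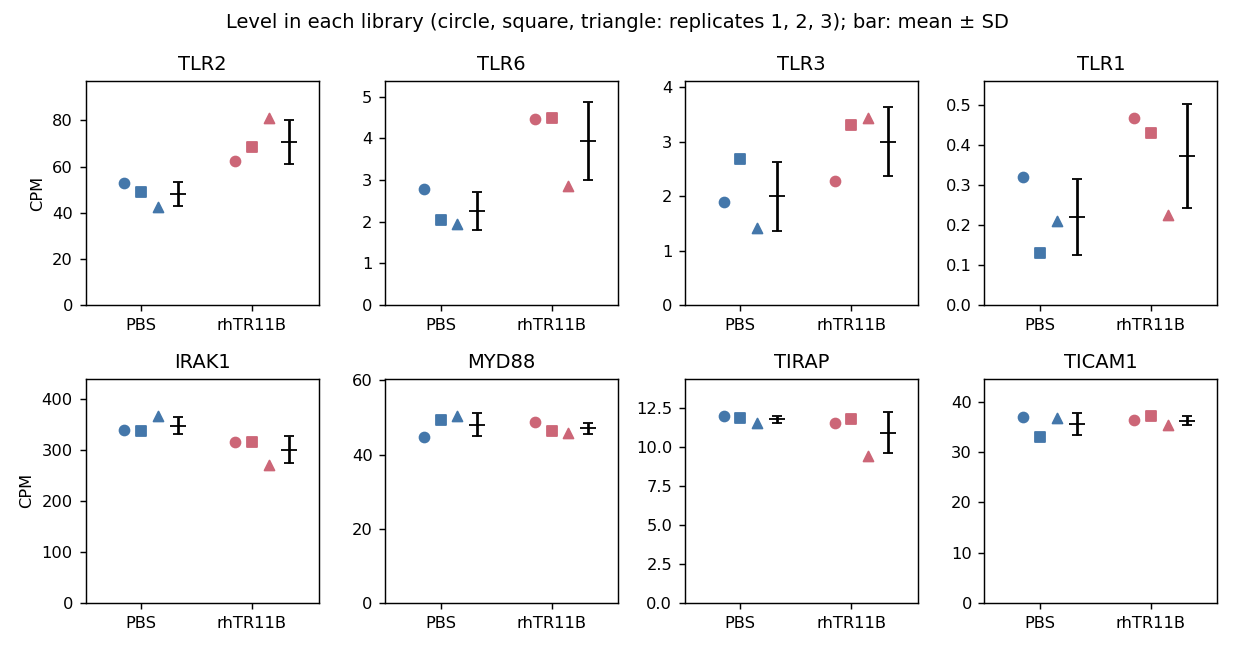
CPM of 8 genes in each library on linear axes from 0, with PBS in blue, rhTR11B in red, the symbol giving the replicate, and the bar the mean ± SD of 3 libraries. TLR2 and TLR6 show no overlap between groups, with replicate 3 highest for TLR2 and lowest among treated libraries for TLR6; IRAK1 lies lower with rhTR11B, and MYD88 and TICAM1 overlap.

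Of the 10 members, 8 passed the low-count filter of the fit, and TLR4 and TLR5 did not. With edgeR's quasi-likelihood test over 13567 genes and a Benjamini-Hochberg adjusted p under 0.05, the calls among members were TLR2 and TLR6, both higher, where 2.92% of all tested genes were called higher, 0.678% lower and 3.6% in either direction. The DESeq2 Wald test, which called 6.18% of its 11783 genes higher and 2.95% lower, called TLR2, TLR6 and also IRAK1, which was lower. IRAK1 and TLR3 were among the calls of edgeR without a low-count filter and without rhTR11B replicate 1, the latter without TLR6. These 2 fits called 7.16% and 9.66% of all tested genes in either direction. Without PBS replicate 2, and without rhTR11B replicate 2, TLR2 alone was called, where 0.167% and 3.15% of all tested genes were. Without PBS replicate 1, and without rhTR11B replicate 3, TLR2 and TLR6 were called, where 2.05% and 2.77% were. Without PBS replicate 3 no member was called, where 0.0873% of all tested genes were. Since the members were chosen with this comparison in view, nothing is read from these counts. All 3 rhTR11B libraries were above PBS in 15.1% and below PBS in 14% of all tested genes, 29.1% in all.

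**Figure D3:**
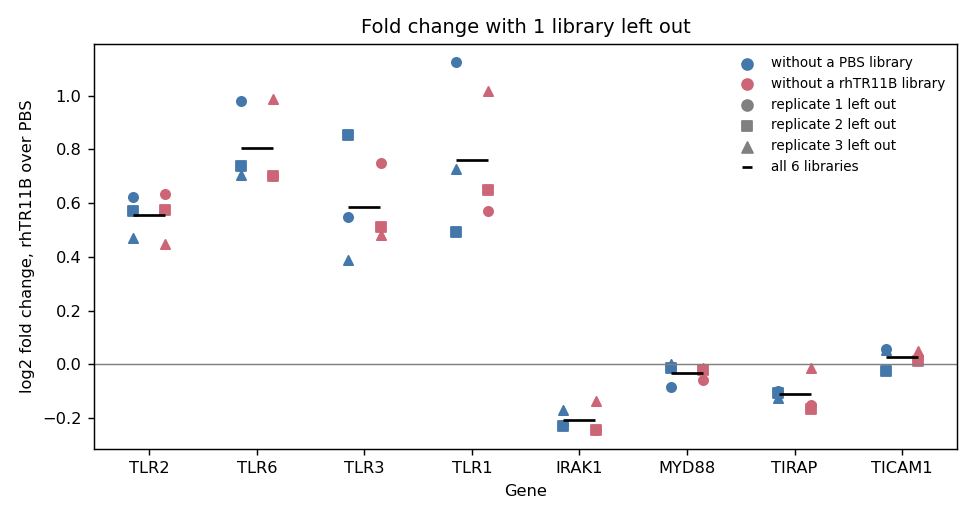
The log2 fold change (rhTR11B over PBS) of 8 genes with all 6 libraries (black bar) and with 1 library left out (blue, a PBS library; red, a rhTR11B library; the symbol gives the replicate). TLR2 stays between 0.45 and 0.64 and TLR6 between 0.70 and 0.99, while MYD88 and TICAM1 lie on both sides of 0.

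The genes around the members were taken from 10 lists of 96 pathway genes, of which 84 were in the table and 69 were tested. The lists were chosen with earlier results of these data known, so their counts are descriptions. Of the 69 tested genes, edgeR's quasi-likelihood test called 5 higher and 1 lower at an adjusted p under 0.05. Of all tested genes, 2.92% were called higher and 0.678% lower. The 69 genes had a median log2 fold change of 0.12, beside 7.3e-05 over all tested genes. Without PBS replicate 2, and without PBS replicate 3, 0 of the 69 passed in either direction in edgeR. At an unadjusted p under 0.05 stood 18 and 19 of them, beside 2258 of all 13765 and 2424 of all 13748 tested genes. In those fits 0.167% and 0.0873% of all tested genes were called, so a count of 0 is near the background. The DESeq2 Wald test on all libraries called 11 of 66 pathway genes higher and 1 lower, where it called 6.18% and 2.95% of all its genes.

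**Figure D4:**
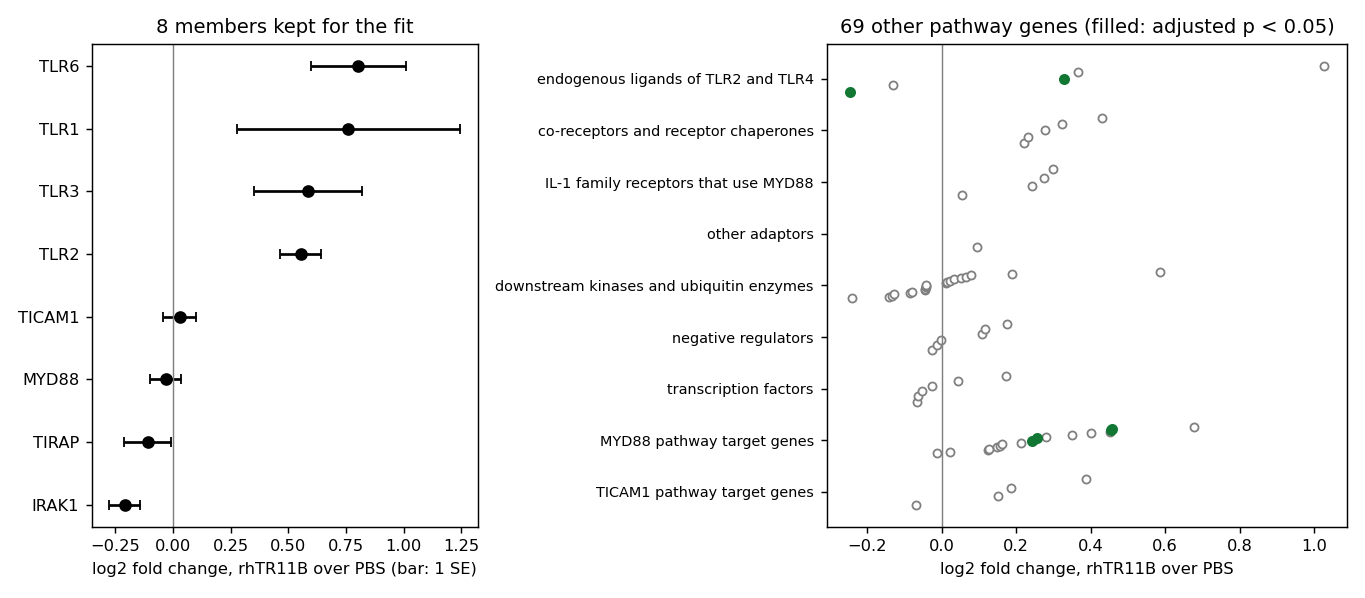
Left, log2 fold change (rhTR11B over PBS) of the 8 members kept for the fit, with bars of 1 SE; right, the same for 69 other pathway genes by list, with filled points for an adjusted p under 0.05 in edgeR. TLR1, TLR2, TLR3 and TLR6 lie to the right of 0, TLR1 with an SE of 0.48 on 5 to 17 counts. TLR4 and TLR5 were too low to draw. The adaptors and IRAK1 lie near or below 0. Filled points are found among the ligands and the MYD88 target genes.

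Among endogenous ligands of TLR2 and TLR4, 1 of 5 tested genes rose and 1 fell, where 2.92% of all tested genes rose and 0.678% fell. The matrix proteoglycan VCAN (versican), a TLR2 ligand, rose from 382 ± 3.79 to 480.3 ± 46.8 CPM (log2 fold change 0.33, adjusted p = 0.0178 in edgeR), and its adjusted p was 0.139 and 0.142 without PBS replicates 2 and 3. HSPD1, a mitochondrial chaperone described as a ligand when released, fell from 722 ± 36.2 to 609 ± 41.6 CPM (adjusted p = 0.0473), and its adjusted p was 0.0649, 0.224 and 0.187 when PBS replicate 1, 2 or 3 was left out and 0.121 when rhTR11B replicate 2 was. The proteoglycan BGN (biglycan) had 16 to 18 counts with PBS and 28 to 37 with rhTR11B without passing (a log2 fold change of 1.03 with SE 0.32, adjusted p = 0.0719).

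No co-receptor or receptor chaperone was called among 5 tested in edgeR, where 3.6% of all tested genes were called. DESeq2 called 3 of them higher, where it called 6.18% of all its genes higher. In edgeR 4 had p-values under 0.05 before adjustment, beside 3279 of all 13567 tested genes. UNC93B1, which escorts endosomal receptors out of the endoplasmic reticulum, had 27.8 to 34.0 CPM with PBS and 35.4 to 45.5 with rhTR11B (adjusted p = 0.0576). The folding factors of Toll-like receptors CNPY3 (0.28, adjusted p = 0.0528) and HSP90B1 (0.23, adjusted p = 0.0611) also lay just outside the threshold. In all 3 genes rhTR11B replicate 3 was the highest library. All 3 genes had every rhTR11B library above PBS, as had 15.1% of all tested genes.

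Below the receptors, edgeR called 0 of 20 kinases and ubiquitin enzymes, 6 negative regulators and 6 transcription factors, and DESeq2 also called 0. With 3.6% of all tested genes called in edgeR, a count of 0 in lists of this size is near the background. IRAK1 belongs to the same chain and is described above. At an unadjusted p under 0.05 stood 3 of them, MAP3K8, MAP3K7 and TNFAIP3, beside 3279 of all 13567 tested genes. The medians of these 3 lists were -0.04, 0.05 and -0.04. The kinase MAP3K8, which feeds the ERK pathway, had 1.65 to 2.49 CPM with PBS and 2.87 to 3.45 with rhTR11B, a log2 fold change of 0.58 with SE 0.20 (adjusted p = 0.0835), and passed only in the fit without a low-count filter among the settings run. MAP3K7 (TAK1), which activates the IkB kinases, had a log2 fold change of -0.14 (adjusted p = 0.191), and the NF-kB inhibitor TNFAIP3 had 0.18 (adjusted p = 0.0917). IRAK3, an inhibitory kinase of the family, had 0 to 1 counts in a library. The IL-1 receptor family shares MYD88 with the Toll-like receptors, and of its 4 tested genes 0 were called in edgeR, with 1 at an unadjusted p under 0.05, IL1RAP (0.30, adjusted p = 0.0574), which DESeq2 called.

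At the end of the MYD88 branch, 4 of 18 tested target genes rose and none fell, with a list median of 0.25. Of all tested genes, 2.92% were called higher and 0.678% lower. The list was chosen with earlier results of these data known, so its count is a description. ICAM1, a leukocyte adhesion molecule, had 415 to 477 CPM with PBS and 567 to 695.5 with rhTR11B, and the monocyte chemokine CCL2 had 173.5 to 204 and 226 to 278 CPM (adjusted p = 0.00561 for each in edgeR). The cytokine TNF and the early response gene IER3 rose less, with log2 fold changes of 0.26 and 0.24 (adjusted p = 0.0474 for each in edgeR). With all libraries kept, neither passed in edgeR with library size alone (0.0579 and 0.0611) or with a mean of at least 5 CPM (0.0557 and 0.0522). Limma-trend on FPKM called neither. Both passed in DESeq2, and in edgeR with DESeq2 size factors, the replicate block and no low-count filter. IER3 went from 249.6 ± 16.1 to 295 ± 18.5 CPM. With PBS replicate 2 left out, the 4 adjusted p-values were 0.0717 for CCL2, 0.0780 for ICAM1, 0.219 for TNF and 0.226 for IER3, and without PBS replicate 3 they were 0.123, 0.110, 0.197 and 0.186. Without rhTR11B replicate 2 TNF had 0.0747 and IER3 0.132, TNF had 0.0620 without rhTR11B replicate 3, and IER3 had 0.0588 without PBS replicate 1. The neutrophil chemokine CXCL1 (0.25, adjusted p = 0.0539) and IL6 (0.35, adjusted p = 0.0663) did not pass in edgeR, while DESeq2, the replicate block and the fit without a low-count filter called both higher. These genes answer to many NF-kB signals, and no library here received a Toll-like receptor ligand that the labels name.

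On the TICAM1 branch, 0 of 4 tested target genes were called in edgeR and in DESeq2, where edgeR called 3.6% of all tested genes. At an unadjusted p under 0.05 stood 1 of them, beside 3279 of all 13567 tested genes. That gene was IFIT3, an interferon-induced antiviral protein, with 2.16 to 2.91 CPM with PBS and 3.16 to 3.49 with rhTR11B (log2 fold change 0.39, adjusted p = 0.188). IFNB1, the interferon that TICAM1 induces, had 0 counts in 5 libraries and 1 in rhTR11B replicate 3.

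Across the 6 libraries, the 3 genes whose log2 CPM was most like that of TLR2, among 11343 other tested genes with a mean of at least 2 CPM, were the integrin chain ITGAV (Pearson r = 0.998), the surface protein CD109 (r = 0.997) and the sodium-proton exchanger SLC9A5 (r = 0.996). Those most like TLR6 were FAM214A (r = 0.979), RERE (r = 0.9745) and ING2 (r = 0.971). The 6 points share the split into treated and control libraries, and the best of so many genes will lie close to any pattern over 6 points, so these are descriptions. ITGAV, CD109 and SLC9A5 had their highest value in rhTR11B replicate 3, as TLR2 did, with 1151, 203.5 and 28.7 CPM, and FAM214A, RERE and ING2 had their lowest treated value there, as TLR6 did, with 8.42, 76.9 and 7.41 CPM.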

How the data were processed

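The authors' deposited tables hold read counts and FPKM values per gene symbol for 6 libraries of A549 cells. Per the submitters' processing notes, fastp, HISAT, HTSeq, R 3.2.0 and DESeq2 were used with GRCh38; the role of each tool, the annotation and the strand setting were not given in the sources used here. If strand was not used, a gene and an antisense partner share reads. The deposited FPKM equal count over gene length and library total for 100% of nonzero values within a relative tolerance of 0.001.

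Libraries were grouped by the treatment in their titles. The counts were analysed with edgeR 4.0.16 in R 4.3.3: filterByExpr (minimum count 10), TMM scaling, group as the only term, the quasi-likelihood test, and Benjamini-Hochberg adjustment over 13567 genes. The step was tested on simulated data. CPM use TMM-scaled library sizes; the SE is the log2 fold change over the square root of F. With 36315751 to 38148838 counts per library, counting error is largest for TLR1, TLR4 and TLR5. It also matters for TLR3, with 54 to 123 counts, and TLR6, with 74 to 167 counts in a library.

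The members and lists were chosen with earlier results of these data known. Named genes are the members, called list genes, up to 3 further genes per list by p, genes too low to test, markers and the likeness genes; any other list gene was named after its values had been seen. Alternatives were other scalings, filters and tools (DESeq2 1.42.0, limma 3.58.1 on log2(FPKM + 1) and log2(FPKM + 0.1)), a replicate block and leaving out each library. Gene overlaps and shared windows came from GENCODE 29, promoters and positions from RefSeq GRCh38.p14.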

Additional observations from a re-analysis of the deposited data

How the results depend on the processing

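The count of the 69 tested pathway genes called higher was 5, and 1 was called lower. Size factors of DESeq2 within edgeR gave the same counts. The count higher was 3 with library size alone, 13 of 84 tested with no low-count filter and 11 of 66 with the DESeq2 Wald test, each with 1 lower; over all genes these settings called 2.28%, 4.73% and 6.18% higher, against 2.92%. With a mean of at least 5 CPM it was 3 of 53, with 0 lower (1.98% higher over all genes). Limma-trend on FPKM with a mean of at least 1 called 2 of 58 higher and 0 lower with either pseudocount (0.573% and 0.592% higher over all genes). With no filter it called 0 and 0, and also 0 of all 19876 genes. At an unadjusted p under 0.05 stood 18 of 84 pathway genes there, beside 3073 of all genes. With 1 library left out, the count ran from 0 to 11 higher and from 0 to 1 lower. Those fits called 0.0655% to 6.56% of all genes higher and 0.0218% to 3.1% lower. Where an arm held 2 libraries, the spread was pooled. The replicate block gave 10 higher and 1 lower, with 5.71% of all genes higher. Same-numbered libraries did not deviate together (correlations -0.105, 0.0506 and -0.00666 over genes), and not every library correlated best with its own number, so the numbers were not taken to pair the samples. The cause of these shifts was not tested. The 8 fitted members, where a setting kept them, had the same sign of log2 fold change under each other scaling, filter and tool. On log2(FPKM + 1) with no filter, values of scarce genes shrink by construction, to 0.02 for TLR1, 0.17 for TLR3 and 0.22 for TLR6. Rescaling FPKM to TPM multiplies all levels within a library by 1 factor (TLR2 13.2, IRAK1 240.6) and keeps their order. Depth limits TLR1, TLR4 and TLR5 most, and TLR3 and TLR6 to a lesser degree.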

Other observations

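Genes beside the receptors on chromosome 4 were looked up by position, a choice made after the data were seen. RNF175, whose annotated span overlaps the 3′ end of the TLR2 span by 478 bases, was covered by 163, 136 and 193 counts in the PBS libraries and 183, 204 and 225 in the treated ones (log2 fold change 0.37, SE 0.15, adjusted p = 0.149 in edgeR). TMEM131L, on the other side of TLR2 at 47569 bases, had a log2 fold change of 0.25 (SE 0.08, adjusted p = 0.0767). FAM114A1, whose span overlaps that of TLR6 by 585 bases, was covered by 1517, 1454 and 1523 counts in the PBS libraries and 1613, 1611 and 1387 in the treated ones (log2 fold change 0.10, SE 0.07, adjusted p = 0.421). No exon of TLR2 overlapped an exon of another gene in GENCODE 29, which gives TLR2 5217 exon bases. The length behind its FPKM was 9443 bases, so this cannot show whether the exons that were counted overlap RNF175. In GENCODE 29, TLR6 shared 57 exon bases with TLR1, 0.944% of its own.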
